A study of Mus musculus with 14 samples.

Results

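The genes described here are 10 enzymes and transporters of glucose metabolism, chosen by name out of 49943 RefSeq genes of the mouse assembly GRCm38. They are 7 glycolytic genes (Slc2a1, Hk1, Hk2, Pfkp, Pfkfb3, Pkm and Ldha) and 3 gluconeogenic genes (Pck1, Fbp1 and G6pc). For each gene, every ChIP-seq peak that touched the gene body or the 10 kb on either side of it was taken from the peak list of each library. In ChIP-seq an antibody pulls down pieces of chromatin whose DNA is then sequenced, and a peak is a stretch of genome where these pieces pile up. The antibodies recognised crotonylation (H3K9cr) or acetylation (H3K9ac) of lysine 9 of histone H3.

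The study asked how these marks differ between healthy and fibrotic kidneys, and whether ACSS2, an enzyme that makes crotonyl-CoA and acetyl-CoA from short-chain acids, takes part. Kidneys came from young adult C57BL/6J mice, either wild type (WT, littermate controls) or ACSS2-/-, a global deletion made with CRISPR/Cas9, and were either control kidneys or kidneys after unilateral ureteric obstruction (UUO), an operation that blocks the outflow of urine and scars the kidney. The letter C in the sample names was read as control. Whether control kidneys were unoperated or sham-operated, and how long the obstruction lasted, was not settled for these libraries. There were 2 H3K9cr libraries for each of the 4 combinations of genotype and operation. H3K9ac had 2 libraries in WT UUO and in ACSS2-/- UUO kidneys and 1 in each control group, as replicate 1 of these was not analysed here.

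In the 8 H3K9cr libraries, 27530 to 45014 peaks covered 29.4 to 64.6 Mb, and in the 6 H3K9ac libraries 15988 to 32760 peaks covered 17.7 to 51.1 Mb. ACSS2-/- control replicate 1 covered the most in H3K9cr and ACSS2-/- UUO replicate 2 the least. The lists hold positions and no heights, and the read depth is unknown from them, so the measure used is the length covered by peaks in a gene's window, in kb. A scaled length was set beside it, in which each library's lengths were multiplied so that all libraries of a mark covered the same total. Nothing in the labels says which libraries came from separate mice. The p-values therefore measure only the spread between these libraries, which may mix technical differences and differences between mice.

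Several features set libraries apart before any gene is considered. The labels give each antibody a catalogue number that rises from group to group, which may be an entry error. If the numbers hold, antibody and group cannot be told apart. No peak on the Y chromosome was called in H3K9cr WT control 1, WT UUO 2 and ACSS2-/- UUO 2, or in 3 of the 4 H3K9ac UUO libraries, while the other libraries had 2 to 14. H3K9cr cover in the window of Xist split the libraries in another way. It was 2.39 to 3.84 kb in WT control 1, ACSS2-/- control 2, WT UUO 2 and ACSS2-/- UUO 2, and 0.470 to 0.933 kb in the other H3K9cr libraries. Each of the 4 H3K9cr groups held 1 library on either side of this split. As both features depend on sex, the 2 libraries of a group may come from mice of different sex, which was not tested. In ACSS2-/- control 2, 2 Y-linked peaks stood beside high Xist cover. The number carried in the peak names differed from the labelled replicate in 4 libraries, namely H3K9cr WT UUO 1 and ACSS2-/- UUO 1 and both H3K9ac ACSS2-/- UUO libraries. Peaks at Acss2 itself covered 1.29 to 6.49 kb in H3K9cr, in both genotypes, so peak positions do not check the deletion.

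Glycolysis splits glucose into pyruvate, and gluconeogenesis runs the route backwards with its own enzymes at the irreversible steps. Within the kidney the proximal tubule is the site of gluconeogenesis and burns mainly fatty acids, whereas distal segments and activated immune cells rely more on glycolysis. Both H3K9cr and H3K9ac are found at the starts of active genes and at enhancers.

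At the 3 gluconeogenic genes, H3K9cr covered much less sequence in UUO than in control kidneys, in both genotypes. Pck1 makes phosphoenolpyruvate carboxykinase, which commits oxaloacetate to glucose synthesis, and lies at chr2:173153073-173159274 on the plus strand. In control kidneys its H3K9cr peaks covered 14.6 and 11.3 kb in WT and 15.9 and 12.3 kb in ACSS2-/- mice. In UUO kidneys they covered 4.12 and 2.37 kb in WT and 5.42 and 6.18 kb in ACSS2-/- mice. All 4 UUO libraries lay below all 4 control libraries, with means of 4.52 ± 1.67 and 13.5 ± 2.12 kb (SD, n = 4 each), a ratio of 0.334.

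Fbp1 encodes fructose-1,6-bisphosphatase, which opposes phosphofructokinase, and lies at chr13:62864753-62888298 on the minus strand. H3K9cr covered 8.49 and 6.40 kb in WT control and 10.8 and 10.1 kb in ACSS2-/- control kidneys. The UUO values were 2.16 and 1.48 kb in WT and 1.30 and 3.40 kb in ACSS2-/- mice. These groups did not overlap either, at 2.08 ± 0.950 against 8.93 ± 1.94 kb (SD, n = 4 each), a ratio of 0.233 and the lowest of the 10 genes.

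G6pc encodes the catalytic subunit of glucose-6-phosphatase, which releases free glucose, and lies at chr11:101367716-101377903 on the plus strand. Its H3K9cr cover was 10.2 and 10.0 kb in WT control and 12.3 and 10.6 kb in ACSS2-/- control kidneys, against 6.21 and 3.59 kb in WT UUO and 4.23 and 3.23 kb in ACSS2-/- UUO kidneys. The means were 4.32 ± 1.33 kb in UUO and 10.8 ± 1.06 kb in control kidneys (SD, n = 4 each), a ratio of 0.400, again without overlap.

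Among the 7 glycolytic genes, Ldha alone showed such a separation. It encodes the A subunit of lactate dehydrogenase, which turns pyruvate into lactate, and lies at chr7:46842274-46855627 on the plus strand. H3K9cr covered 8.28 and 7.68 kb in WT control, 9.67 and 8.56 kb in ACSS2-/- control, 5.55 and 3.92 kb in WT UUO and 4.77 and 4.37 kb in ACSS2-/- UUO kidneys. The UUO mean was 4.65 ± 0.692 kb and the control mean 8.55 ± 0.835 kb (SD, n = 4 each), a ratio of 0.544.

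Hk2 encodes the inducible hexokinase that phosphorylates glucose on entry, and lies at chr6:82725025-82774454 on the minus strand. Its H3K9cr peaks covered next to nothing in control kidneys, with 0.375 kb in WT control 1 and no peak called in the other 3 libraries. After UUO its peaks covered 4.88 and 3.05 kb in WT and 2.52 and 0.308 kb in ACSS2-/- mice. The weakest UUO library fell just below the strongest control library, so the groups overlapped (mean difference 2.60 kb, two-sided exact permutation p = 0.0571). On the scaled length all 4 UUO libraries lay above all 4 control libraries.

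**Figure D1:**
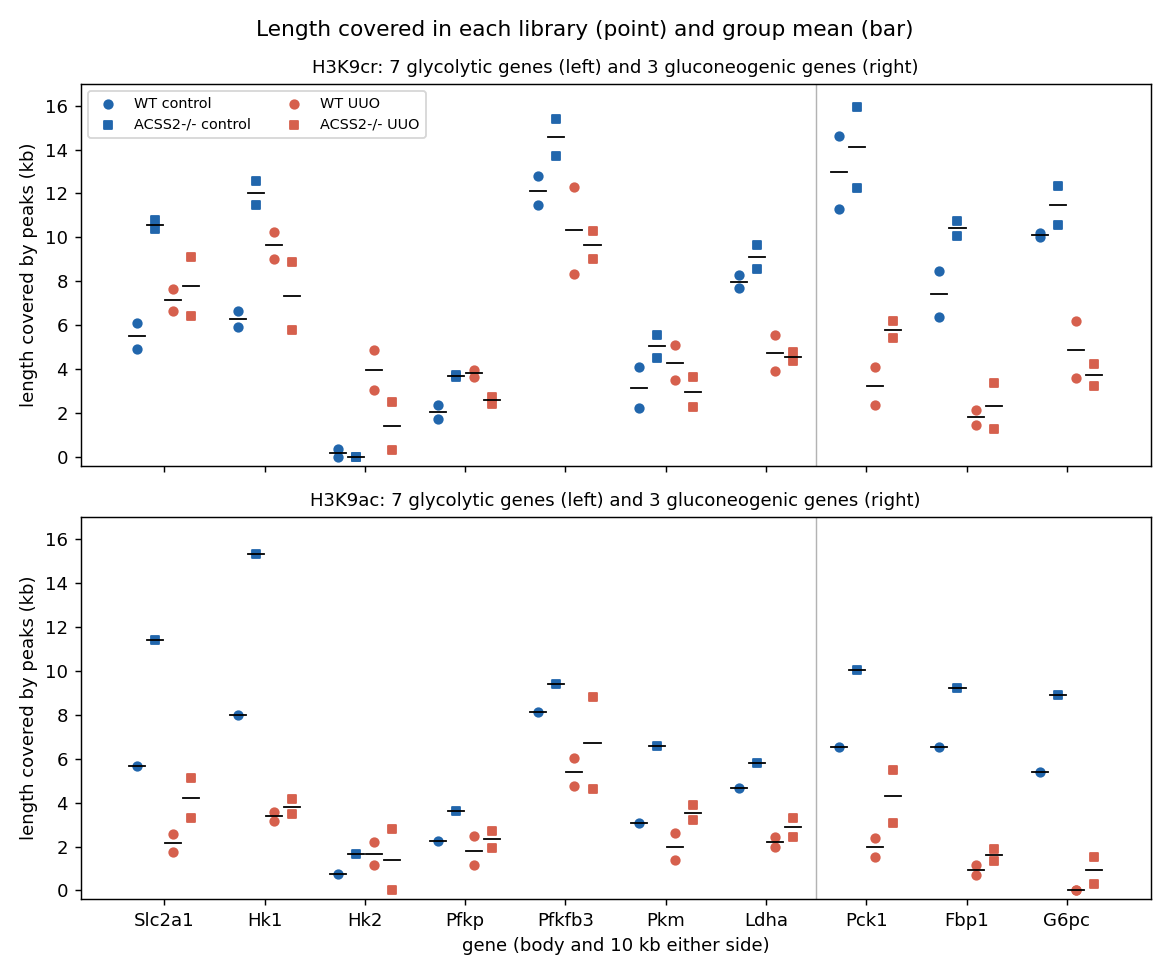
Length covered by peaks in the body and 10 kb either side of each gene (vertical axis, kb), by gene (horizontal axis), for H3K9cr (upper panel, 8 libraries) and H3K9ac (lower panel, 6 libraries), with circles for WT, squares for ACSS2-/-, blue for control, red for UUO and a bar for each group mean. In H3K9cr the UUO points of Pck1, Fbp1, G6pc and Ldha all lie below the control points, while Hk2 runs from 0 to 0.375 kb in control and from 0.308 to 4.88 kb in UUO kidneys.

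The other 5 glycolytic genes kept H3K9cr peaks in all 8 libraries and their UUO and control values overlapped. Slc2a1, the glucose transporter GLUT1, covered 4.94 to 10.8 kb in control and 6.43 to 9.13 kb in UUO kidneys. For Hk1, the widely expressed hexokinase, the ranges were 5.94 to 12.6 kb and 5.80 to 10.3 kb. Pfkp, the platelet type of phosphofructokinase, covered 1.72 to 3.73 kb and 2.44 to 3.98 kb, and Pkm, the pyruvate kinase of most tissues, 2.23 to 5.56 kb and 2.29 to 5.08 kb. Pfkfb3 makes the activator of phosphofructokinase, fructose 2,6-bisphosphate, and covered 11.5 to 15.4 kb in control and 8.35 to 12.3 kb in UUO kidneys (difference of means -3.37 kb, two-sided exact permutation p = 0.0571).

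In counts, H3K9cr was lower in UUO without overlap at 3 of 3 gluconeogenic and 1 of 7 glycolytic genes, against 16.8% of the 28438 genes with an H3K9cr peak in at least 1 library. It was higher at 0 of 10 genes, against 2.38%. With scaled lengths the same 4 genes were lower (background 7.45%), at ratios of 0.466 for Pck1, 0.337 for Fbp1, 0.530 for G6pc and 0.736 for Ldha, and Hk2 was higher (background 14.2%). The median difference, UUO minus control, was -6.84 kb over the gluconeogenic genes, -0.594 kb over the glycolytic genes and -0.239 kb over all 28438 genes. Scaled, these medians were -5.16, 1.37 and 0.198 kb. Over all genes with a ratio the median log2 ratio moved from -0.23 to 0.21 with scaling, and the differences of Slc2a1, Hk1, Pfkfb3 and Pkm changed sign with it.

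Each of the 4 lower genes had the smallest two-sided p that an exact permutation of 4 against 4 libraries allows, 0.0286, and a Benjamini-Hochberg adjusted p of 0.149 over the 28438 genes. By this test, 0 genes in the genome passed an adjusted p of 0.05, with 5447 at an unadjusted p under 0.05, or 6167 on the scaled length. As no UUO library reaches a control library at these 4 genes, leaving out libraries, by peak-name number or Y-linked peaks, cannot end their calls and so does not test them. As no sorting of cell types is described for the ChIP-seq, fewer cells of a type and less mark per cell cannot be told apart.

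The gluconeogenic genes also differed in the shape of the marked region. At G6pc, each control library had a single H3K9cr peak of 6.04 to 6.34 kb reaching from about 8.1 to 1.9 kb before the start, and another of 2.88 to 4.14 kb over the start itself. In all 4 UUO libraries the upstream region was broken into 2 to 4 pieces, the longest of them 2.66 kb. The number of peaks in the window overlapped, at 4 ± 1.41 in UUO and 3.25 ± 1.26 in control kidneys (SD, n = 4 each), while the longest peak was 1.89 ± 0.686 kb against 6.20 ± 0.163 kb. The annotated start lay in an H3K9cr peak in 7 of 8 libraries, all but ACSS2-/- UUO 2.

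Pck1, which had the shortest window, was the most densely marked of the 10 genes in control kidneys. Peaks filled the gene body there, over 5.72 ± 0.466 of its 6.20 kb, and went on downstream, over 6.15 ± 1.47 of the next 10 kb (SD, n = 4). The longest was 9.91 kb, in ACSS2-/- control 1, from 2.08 kb before to 7.83 kb after the start. In UUO kidneys 3.36 ± 1.23 kb of the body and 0.747 ± 0.629 kb downstream were covered (SD, n = 4). In 3 of 4 control libraries a broad peak from about 15 to 22 kb past the start reached into the end of the window. No such peak reached into the window in the UUO libraries. Peaks wholly past the window, which ends 10 kb after the gene, were not examined.

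At Fbp1, all 4 control libraries had peaks between 4.23 and 6.63 kb before the start, and no UUO library did. Upstream cover was 2.46 to 3.50 kb in control libraries, 0.540 kb in ACSS2-/- UUO 2 and 0 in the other 3 UUO libraries. The longest peak in each UUO library, 0.909 to 1.97 kb, lay at the start or just inside the gene. Peaks in the downstream part of the window, in 4 of 4 control libraries and in WT UUO 1, lay near the start of the neighbour Fbp2, a related bisphosphatase of muscle.

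At Ldha, a peak of 2.14 to 2.82 kb covered both annotated starts in all 8 H3K9cr libraries, and a peak of 1.98 to 2.70 kb did so in all 6 H3K9ac libraries. Within 1 kb of the starts, H3K9cr was lower in UUO by 0.333 kb, again without overlap. Most of the difference lay before the gene, where cover was 5.93 ± 0.573 kb in control and 2.35 ± 0.562 kb in UUO kidneys (SD, n = 4 each). With a window of 3 kb in place of 10 kb, which leaves most of this stretch out, the groups overlapped at Ldha, at a difference of -1.27 kb. Its neighbour Ldhc, the testis form of lactate dehydrogenase, begins in the downstream part of the window, where no H3K9cr peak was called.

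**Figure D2:**
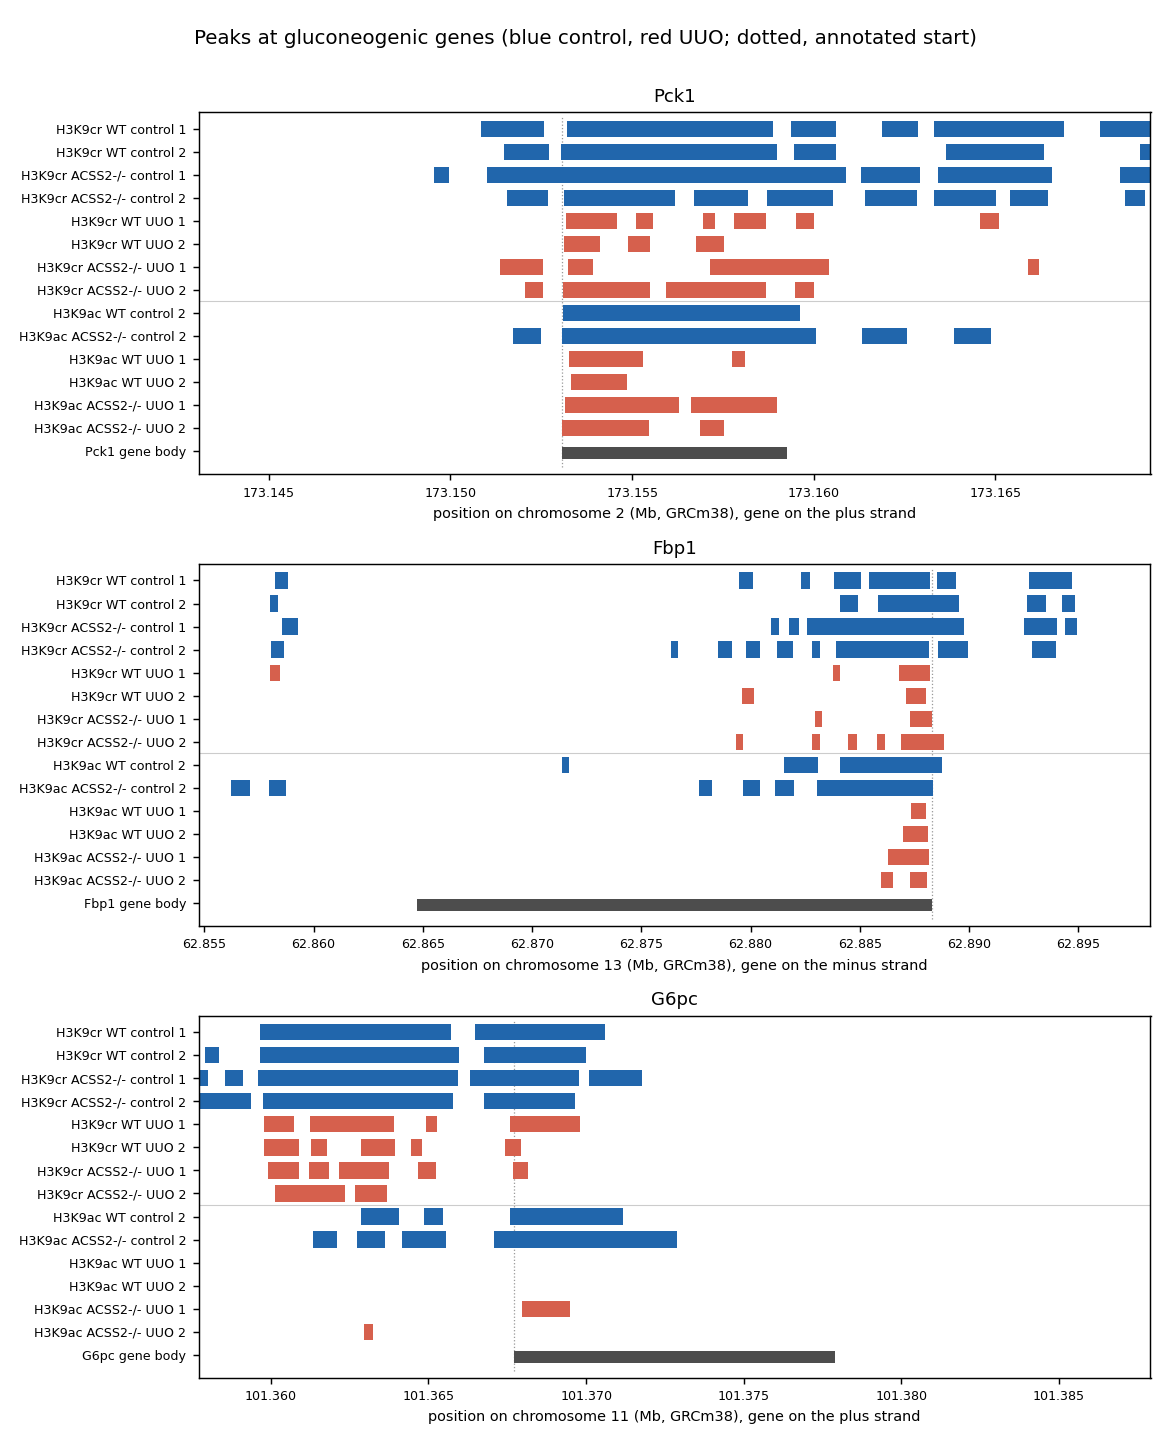
Maps of Pck1, Fbp1 and G6pc with position on the chromosome (horizontal axis, Mb, GRCm38) and a line for each of the 14 libraries; bars are peaks, blue in control and red in UUO kidneys, and the dotted line is the annotated start. The H3K9cr peak before G6pc is 6.04 to 6.34 kb long in the 4 control libraries and falls into 2 to 4 pieces in the UUO libraries.

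At Hk2, UUO libraries had a peak over the start. Peaks of 3.14 kb in WT UUO 1, 2.26 kb in WT UUO 2 and 1.68 kb in ACSS2-/- UUO 1 covered it, whereas no H3K9cr peak covered it in ACSS2-/- UUO 2 or in the 4 control libraries. In H3K9ac the start lay in a peak in 2 of 6 libraries, WT UUO 2 and ACSS2-/- UUO 2. Of the annotated starts of Hk1, the inner one alone lay in a peak. The peak at position 62340421 was 3.07 to 4.40 kb long in H3K9cr and present in 8 of 8 H3K9cr and 6 of 6 H3K9ac libraries, while the outer start at position 62379908 lay in a peak in 0 of 14. The window of Hk1 also holds the ends of Tacr2, a tachykinin receptor, and Hkdc1, another hexokinase, and the windows of Pfkp and Pkm hold ends of Pitrm1, Parp6 and Gramd2.

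**Figure D3:**
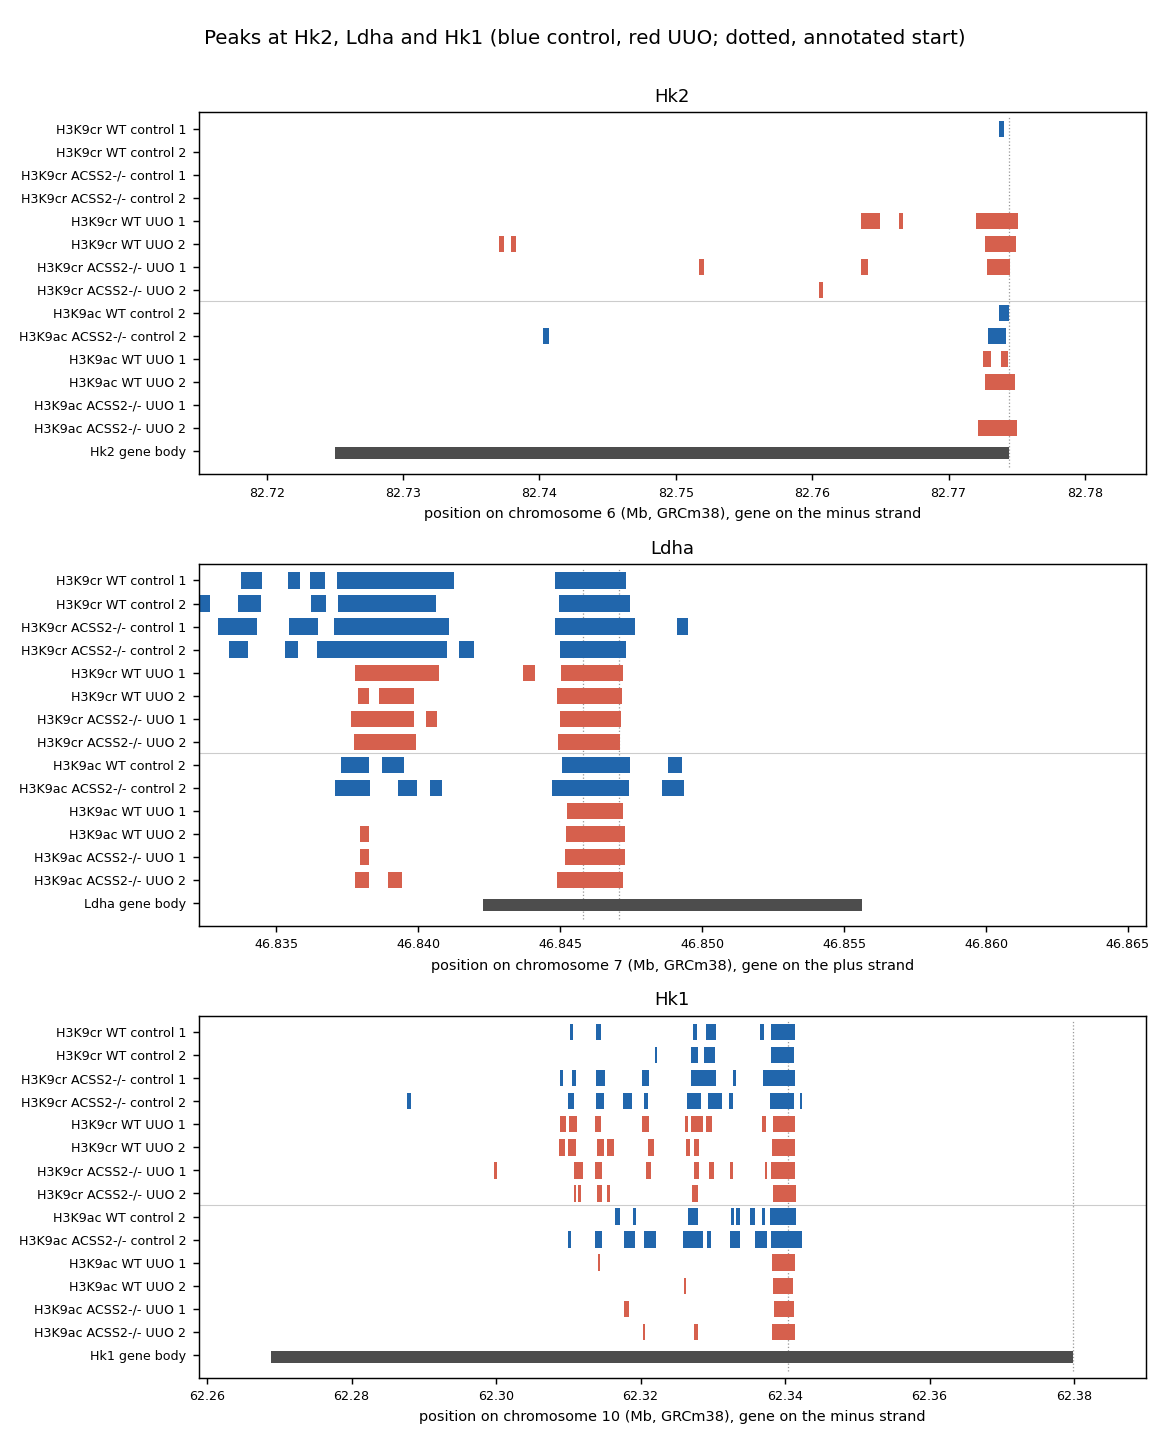
Maps of Hk2, Ldha and Hk1 with position on the chromosome (horizontal axis, Mb, GRCm38) and a line for each of the 14 libraries; bars are peaks, blue in control and red in UUO kidneys, and dotted lines are annotated starts. Ldha and Hk1 have a start peak in all 14 libraries, whereas H3K9cr covers the start of Hk2 in 3 UUO libraries and in no control library.

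Set per length, as percent of the window covered by H3K9cr, the order of the genes in control kidneys began with gluconeogenic genes. The first 3 genes of this order, Pck1, G6pc and Ldha, also had the shortest windows, at 26.2, 30.2 and 33.4 kb. Windows of the other genes were 42.8 to 131 kb long. Equal cover gives a lower percent in a longer window, so the order is not separate from gene length. Pck1 stood at 51.6% ± 8.11, G6pc at 35.7% ± 3.52, Ldha at 25.6% ± 2.50 and Fbp1 at 20.5% ± 4.45 (SD, n = 4 each). Slc2a1 (16.6%), Pfkfb3 (13.0%), Pkm (9.58%), Hk1 (6.99%), Pfkp (3.22%) and Hk2 (0.135%) followed. Neighbours in this order had separate values for Pck1 and G6pc, G6pc and Ldha, Hk1 and Pfkp, and Pfkp and Hk2, and overlapped in the other 5 cases. In UUO kidneys the order was Pck1 (17.3%), Slc2a1 (15.4%), G6pc (14.3%), Ldha (13.9%), Pfkfb3 (9.72%), Pkm (8.50%), Hk1 (6.48%), Fbp1 (4.79%), Hk2 (3.87%) and Pfkp (3.60%), and every neighbour overlapped the next.

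Split by genotype, the 3 gluconeogenic genes and Ldha were lower in UUO in both WT and ACSS2-/- kidneys, as the separation of the pooled groups fixes, and Hk2 was higher in both, while the calls of the other 5 glycolytic genes differed. With 2 libraries against 2, groups are called apart when they do not overlap, and the smallest two-sided exact permutation p is 0.333. In WT kidneys H3K9cr was lower in UUO at 3 of 3 gluconeogenic genes and at Ldha (background 25.0%) and higher at Slc2a1, Hk1, Hk2 and Pfkp (background 21.3%). In ACSS2-/- kidneys it was lower at 3 of 3 gluconeogenic and 6 of 7 glycolytic genes (background 49.6%) and higher at Hk2 alone (background 4.37%). For Slc2a1, Hk1 and Pfkp the directions were opposite, at 1.62, 3.35 and 1.77 kb in WT and -2.81, -4.68 and -1.10 kb in ACSS2-/- mice. Opposite directions of this kind, up in WT and down in ACSS2-/-, were found at 1483 genes or 5.21%.

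On the scaled length no gene of the 10 was called in opposite directions, though the mean differences of Hk1, Pfkfb3 and Pkm had opposite signs in the genotypes. There, ACSS2-/- UUO libraries were lower at 3 of 3 gluconeogenic genes and Ldha (background 16.8%) and higher at Slc2a1 and Hk2 (background 36.7%). In WT, scaled lengths were lower at the same 4 genes (background 19.2%) and higher at Slc2a1, Hk1, Hk2, Pfkp and Pkm (background 28.7%). Permuting the genotype within each operation tests the difference between the effects, and 36 arrangements allow no two-sided exact p below 0.0556. That value was reached by Hk1, with an effect -8.03 kb apart, and by Pfkp, at -2.87 kb, both with an adjusted p of 0.580 (Benjamini-Hochberg), while Slc2a1, at -4.43 kb, had an exact p of 0.222. On the scaled length Hk1 (-4.34 kb) and Pck1 (6.66 kb) reached the same exact p of 0.0556, with an adjusted p of 0.816 by Benjamini-Hochberg.

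Between the genotypes after UUO, H3K9cr was higher in ACSS2-/- mice at Pck1 (background 6.3%), at 5.80 ± 0.532 kb against 3.25 ± 1.24 kb (SD, n = 2 each). It was lower at Hk1, Hk2 and Pfkp (background 22.2%), where the ACSS2-/- means were 7.34 ± 2.17, 1.42 ± 1.57 and 2.59 ± 0.220 kb and the WT means 9.65 ± 0.877, 3.96 ± 1.29 and 3.82 ± 0.221 kb (SD, n = 2 each). Scaled, Pck1 and Slc2a1 were higher (background 16.5%) and Hk1, Hk2 and Pkm lower (background 12.6%). All of these had the smallest two-sided exact permutation p of 0.333.

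In control kidneys, ACSS2-/- libraries covered more than WT libraries at 6 of 7 glycolytic genes, all but Hk2, and at Fbp1 and G6pc (background 40.3%). The differences were widest at Slc2a1, 10.6 ± 0.303 against 5.52 ± 0.819 kb, and Hk1, 12.0 ± 0.773 against 6.30 ± 0.511 kb (SD, n = 2 each). Scaled to equal totals, Slc2a1, Hk1 and Pfkp remained higher (background 11.5%), and Pfkfb3, Ldha, Pck1 and G6pc were lower (background 24.5%). Over both operations together, 4 libraries against 4, 0 of 10 genes were lower (background 0.229%) and 0 were higher (background 0.619%) in ACSS2-/- mice. The smallest two-sided exact permutation p there was 0.0857, at Slc2a1, with a mean difference of 2.85 kb and an adjusted p of 1 by Benjamini-Hochberg, and 0 of the 10 genes had an unadjusted p under 0.05.

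H3K9ac too covered less in UUO than in control kidneys at the 3 gluconeogenic genes, though for Pck1 the scaled values overlapped. For Pck1, H3K9ac covered 6.54 kb in WT and 10.0 kb in ACSS2-/- control kidneys, against 2.40 and 1.54 kb in WT UUO and 5.50 and 3.06 kb in ACSS2-/- UUO kidneys. Fbp1 had 6.52 and 9.22 kb in the control libraries and 0.685, 1.15, 1.87 and 1.34 kb after UUO. At G6pc, the control libraries had 5.41 and 8.88 kb, neither WT UUO library had any H3K9ac peak in the window, and the ACSS2-/- UUO libraries had 1.53 and 0.3 kb.

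Of the glycolytic genes, Hk1 went from 7.999 and 15.3 kb of H3K9ac in control to 3.17 to 4.17 kb in UUO kidneys, Slc2a1 from 5.66 and 11.4 kb to 1.73 to 5.10 kb, and Ldha from 4.65 and 5.80 kb to 1.98 to 3.31 kb. Hk2 had 0.746 and 1.67 kb in control kidneys and 0 to 2.81 kb in UUO kidneys. Pfkp, Pfkfb3 and Pkm overlapped as well, with UUO ranges of 1.16 to 2.71, 4.60 to 8.83 and 1.37 to 3.87 kb.

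Thus H3K9ac was lower in UUO at 3 of 3 gluconeogenic and 3 of 7 glycolytic genes, against 46.1% of 25178 genes, and higher at 0 of 10, against 0.369%. With 4 libraries against 2 the test allows no two-sided exact permutation p below 0.0667, which all 6 genes had, with an adjusted p of 0.168 (Benjamini-Hochberg). Scaled, Fbp1, G6pc and Hk1 remained lower (background 11.8%), Pck1 overlapped at a ratio of 0.765, and Pfkfb3 was higher (background 20.5%). The median log2 ratio over all genes with a ratio was -0.74, and 0.18 when scaled.

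After UUO, H3K9ac was higher in ACSS2-/- than in WT mice at Slc2a1, Pkm, Ldha and all 3 gluconeogenic genes (background 25.7%, 2 libraries against 2). At Ldha the nearest values were 2.438 and 2.437 kb. The ratio was 1.96 at Slc2a1, 2.17 at Pck1 and 1.75 at Fbp1. With scaled lengths Slc2a1, Pkm and G6pc were higher (background 12.4%). In control kidneys each genotype had a single H3K9ac library, so the larger ACSS2-/- values there have no replicate check.

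Set against each other in WT UUO kidneys, H3K9cr covered more than H3K9ac at 7 of 7 glycolytic genes and at Fbp1 and G6pc (background 62.4% of 24230 genes that had a peak of each mark in at least 1 library). As a share of the library's covered length, which takes out the larger total of H3K9cr, it was higher at Slc2a1, Hk1 and G6pc (background 20.8%). In ACSS2-/- UUO kidneys H3K9cr covered more at Slc2a1, Hk1, Pfkfb3, Ldha and G6pc (background 24.9%). By share, Slc2a1, Hk1 and G6pc were again higher (background 15.2%) and Pfkp and Pkm lower (background 39.1%). The paper states that the marks were measured on shared samples, which this comparison of groups does not use. Within both pairs of WT UUO libraries of the same replicate number, H3K9cr also covered more than H3K9ac at Pck1 in unscaled length. Its share of the library's covered length was lower there in both pairs. Peak names of H3K9cr WT UUO 1 carry the number 3 and those of H3K9ac WT UUO 1 the number 1, so this pair may not share a sample. Paired by that number, both ACSS2-/- UUO pairs had more unscaled H3K9cr than H3K9ac at Pck1 and Pfkp and less at Pkm. In this pairing the cover at Xist was 2.39 kb in H3K9cr and 2.04 kb in H3K9ac for number 2. For number 3 it was 0.482 and 0 kb, with 14 and 13 Y-linked peaks against 0 and 0 for number 2. G6pc in UUO kidneys had an H3K9cr peak in 4 of 4 libraries and an H3K9ac peak in 2 of 4.

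The other genes of the pathways were taken from lists, 30 for glycolysis and 16 for gluconeogenesis and fructose use. H3K9cr was lower in UUO at 11 of 16 gluconeogenesis genes and at 8 of 30 glycolysis genes, and higher at 0 of either list, against 18.3% lower and 2.34% higher over all protein-coding genes. Among the 11 is Fbp2, also lower when scaled, whose window overlaps that of Fbp1, so that the 2 genes share peaks. The median difference in unscaled length was -1.36 kb over the gluconeogenesis list and -0.675 kb over the glycolysis list. Ppargc1a, a coactivator of gluconeogenic and mitochondrial genes, had the widest difference, at 4.94 ± 1.64 kb in UUO against 27.2 ± 10.4 kb in control kidneys (SD, n = 4 each). Pcx, the pyruvate carboxylase at the entry to gluconeogenesis, was at 6.38 ± 1.05 against 18.6 ± 5.14 kb. Slc2a2, the basolateral glucose transporter of the proximal tubule, was at 3.88 ± 1.22 against 8.46 ± 3.11 kb. Values of 7.08 against 11.9 kb were found at Khk (ketohexokinase) and 4.91 against 7.99 kb at Slc37a4, the glucose-6-phosphate transporter that works with G6pc, but the scaled values of these 2 genes overlapped.

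Among the glycolysis list, the 8 lower genes were Aldoc, Gapdh, Pgk1, Pgam1, Eno1, Pfkfb2, Pdk2 and Pdk4. Pdk2, a kinase that shuts off pyruvate dehydrogenase, was at 3.29 ± 0.458 kb in UUO against 9.05 ± 2.52 kb in control kidneys, and Eno1, an enolase, at 4.09 ± 0.684 against 7.27 ± 1.38 kb (SD, n = 4 each). With scaled lengths, 6 genes of the gluconeogenesis list were lower, Pcx, Slc2a2 and Ppargc1a among them, and 1 was higher (Crtc2), whereas of the glycolysis list 2 were lower (Eno1 and Pdk2) and 5 higher (Pfkm, Aldoa, Eno3, Slc2a3 and Pfkfb4). Over all protein-coding genes the scaled shares were 7.42% lower and 16.4% higher. For H3K9ac, 13 of 16 and 18 of 30 genes were lower and 0 were higher, against 49.7% and 0.375% of protein-coding genes. Scaled, 6 of 16 and 3 of 30 were lower and 2 and 3 higher, against 11.2% and 23.1%.

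Markers of cell types moved with these results in H3K9cr and H3K9ac, and their part in them was not tested. Of 10 proximal tubule markers, H3K9cr was lower in UUO at 8 and higher at 0, against the 18.3% and 2.34% given above for protein-coding genes. Scaled, it was lower at 7 and higher at 0, against 7.42% and 16.4%. Slc22a6 and Slc22a8 among them lie side by side and share peaks. The summed cover of the 10 markers was 78.4 and 55.4 kb in WT control and 121 and 73.0 kb in ACSS2-/- control kidneys, against 26.0 and 10.2 kb in WT UUO and 18.7 and 19.7 kb in ACSS2-/- UUO kidneys. Hnf4a was the most covered, and no marker was at 0 in all libraries. H3K9ac at these markers was lower at 10 of 10, against 49.7% of protein-coding genes, and scaled at 8 of 10, against 11.2%, with sums of 63.8 and 91.4 kb in the control libraries, 3.74 and 5.08 kb in WT UUO and 21.7 and 16.5 kb in ACSS2-/- UUO kidneys.

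Of 12 leukocyte markers, H3K9cr was higher in UUO at 6 (C1qa, C1qb, C1qc, Ptprc, Tyrobp and Cd74), against 2.34% of protein-coding genes, and lower at 0. Scaled, it was higher at 7, against 16.4%. The sums were 6.13 and 9.52 kb in WT control, 14.1 and 10.2 kb in ACSS2-/- control, 70.9 and 54.9 kb in WT UUO, and 52.7 and 30.5 kb in ACSS2-/- UUO kidneys. C1qc was the most covered and Itgam was at 0 throughout. C1qa, C1qb and C1qc lie side by side, so their windows share peaks. The order of the UUO libraries in this sum, WT 1, WT 2, ACSS2-/- 1 and ACSS2-/- 2, was also their order in H3K9cr cover of Hk2, while in H3K9ac the 2 orders differed. A link between the 2 orders was not tested, and the sum counts the shared C1q peaks more than once. In H3K9ac, 5 of 12 leukocyte markers were higher, against 0.375% of protein-coding genes, and the sums were 10.2 and 21.0 kb in control and 19.1, 37.5, 21.3 and 64.3 kb in UUO libraries.

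Distal nephron markers were lower in H3K9cr at 2 of 7, against 18.3% of protein-coding genes (most covered Slc12a3, Calb1 at 0), with sums of 27.8 to 46.9 kb in control and 12.6 to 18.0 kb in UUO libraries. Endothelial markers were lower at 3 of 5, against the same 18.3% (most covered Pecam1), at 6.55 to 21.3 kb and 4.47 to 14.8 kb. Stromal markers were higher at 1 of 6, against 2.34% (most covered Pdgfrb), at 3.55 to 7.81 kb and 4.23 to 14.8 kb. Markers of injured tubules were lower or higher at 0 of 6, but higher at 3 when scaled (Lcn2, Vcam1 and Sox9; most covered Spp1), at 9.75 to 13.5 kb and 9.33 to 26.3 kb. Muscle markers were apart at 0 of 4, with Myh2 and Acta1 at 0 in all libraries and sums of 1.56 to 3.05 kb in control and 2.43 to 5.63 kb in UUO libraries. Scaled, H3K9cr was lower at 1 and higher at 1 distal marker, lower at 2 and higher at 1 endothelial marker, and higher at 2 stromal markers and 1 muscle marker, against 7.42% lower and 16.4% higher over protein-coding genes. H3K9ac was lower at 5 of 7 distal, 4 of 5 endothelial and 2 of 4 muscle markers, against 49.7%, and at 4, 3 and 1 of them when scaled, against 11.2%. It was higher at 1 of 6 injured tubule and 0 of 6 stromal markers, against 0.375%, and at 4 and 1 of them when scaled, against 23.1%.

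Across the 8 H3K9cr libraries, the protein-coding genes whose covered length ran most like that of Pck1 were Ywhae (Pearson r 0.995), Grin3b (0.992) and Trap1 (0.991), out of 16358 searched. For Hk2 they were Ms4a4c (0.995), Bcat1 (0.994) and Itgax (0.993), out of 16359. Ms4a4c, Bcat1 and Itgax had no peak in any control library, and Itgax, the integrin CD11c of dendritic cells and macrophages, covered 3.07, 2.02, 1.53 and 0.436 kb in the 4 UUO libraries. These values are descriptions, and all genes share the same 8 libraries.

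For the 3 gluconeogenic genes and Hk2, the 250 bases before the start are shown, from RefSeq on GRCm38.p6, 5′ to 3′ on the strand of the gene, with motif matches in capitals. They are chr2:173152823-173153072 on the plus strand for Pck1, chr13:62888283-62888532 on the minus strand for Fbp1, chr11:101367466-101367715 on the plus strand for G6pc and chr6:82774455-82774704 on the minus strand for Hk2. The motifs searched on both strands were the TATA box, spelled TATAAA, the core of the cAMP response element, spelled TGACG, a nuclear receptor site, spelled AGGTCA, an arm of the HNF1 site, spelled GTTAAT, and the core of the hypoxia response element, spelled ACGTG. In this order they occur in 12.4%, 17.8%, 14.02%, 6.43% and 16.6% of 32851 promoters of this length.
Pck1: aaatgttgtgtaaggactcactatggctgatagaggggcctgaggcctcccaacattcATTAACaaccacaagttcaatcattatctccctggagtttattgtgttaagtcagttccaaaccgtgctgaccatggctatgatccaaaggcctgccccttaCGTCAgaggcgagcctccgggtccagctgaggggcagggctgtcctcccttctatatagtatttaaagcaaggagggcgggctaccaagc
Fbp1: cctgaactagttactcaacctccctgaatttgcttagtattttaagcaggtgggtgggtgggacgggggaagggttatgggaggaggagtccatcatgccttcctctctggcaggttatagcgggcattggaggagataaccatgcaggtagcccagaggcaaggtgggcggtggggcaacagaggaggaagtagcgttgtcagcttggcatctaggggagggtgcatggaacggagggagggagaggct
G6pc: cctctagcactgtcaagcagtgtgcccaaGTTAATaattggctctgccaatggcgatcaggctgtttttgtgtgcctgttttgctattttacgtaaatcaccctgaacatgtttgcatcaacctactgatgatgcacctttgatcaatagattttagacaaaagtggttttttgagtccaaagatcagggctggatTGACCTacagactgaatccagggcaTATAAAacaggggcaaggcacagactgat
Hk2: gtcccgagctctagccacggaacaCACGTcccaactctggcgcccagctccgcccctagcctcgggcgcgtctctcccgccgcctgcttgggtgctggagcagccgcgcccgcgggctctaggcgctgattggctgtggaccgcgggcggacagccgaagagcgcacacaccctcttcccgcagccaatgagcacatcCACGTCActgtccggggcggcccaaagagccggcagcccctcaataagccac

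Pck1 held TGACG on the minus strand 90 bases and GTTAAT on the minus strand 192 bases before the start. G6pc held TATAAA at 29 bases, AGGTCA on the minus strand at 54 bases and GTTAAT at 221 bases. Hk2 held ACGTG on the minus strand at 226 and 52 bases, the latter overlapping a TGACG on the minus strand at 50 bases, and Fbp1 held none of the 5 motifs. A match is a description of the letters and not evidence that a factor binds.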

How the data were processed

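The authors deposited 1 peak list per library as BED files with chromosome, start, end and a peak name. Per the labels, reads were aligned to mm10 with Bowtie2 and peaks were called with MACS2 in each library alone, and ChIPseeker was used. Versions and the control given to the caller are not given in the sources used here. Positions were the only values of the deposited lists used here, with no score, signal or count.

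Peaks were merged within a library and laid over RefSeq genes of GRCm38.p6, with strands from the promoter table, using Python 3.11.15 with pandas 2.3.3 and numpy 2.4.6. The permutation test was checked against SciPy 1.17.1, and plots were drawn with matplotlib 3.10.9. The covered kb in each gene and 10 kb on either side were compared by exact two-sided permutation of the difference of means, with Benjamini-Hochberg adjustment over all genes with a peak of the mark in at least 1 library. Groups were called lower or higher when their values did not overlap. The code was tested on simulated data. Scaled lengths used mean totals of 43.9 Mb for H3K9cr and 29.1 Mb for H3K9ac.

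Named genes were the 10 members, protein-coding neighbours in their windows, at most 8 listed pathway genes with the largest difference among those whose H3K9cr groups did not overlap, and the 3 genes most alike to Pck1 and Hk2. Other pathway and marker genes were named after their values were seen. Members and lists were chosen with earlier results of these data known. Alternatives tried were narrower windows, number of peaks, equal numbers of peaks, longer peaks, scaling, subsets of libraries and pairing by replicate number. Those added after seeing the data were the sets without other peak-name numbers and, for control kidneys, scaling and both pairings.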

Additional observations from a re-analysis of the deposited data

Results flagged for a closer look

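At Hk2 in H3K9cr of control kidneys, WT control 1 had 0.375 kb and the other 3 libraries had 0 kb, so that the gap to the nearest library divided by the range was 1.00. As the other 3 are tied at 0 kb, any length above 0 gives this value. In all, 30 groups were examined.

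The effect of UUO on H3K9cr had opposite directions in the genotypes at Slc2a1, Hk1 and Pfkp, with every WT UUO library above both WT controls and every ACSS2-/- UUO library below both ACSS2-/- controls. The ACSS2-/- effect minus the WT effect was -4.43 kb at Slc2a1 (two-sided exact permutation p = 0.222), -8.03 kb at Hk1 (exact p = 0.0556) and -2.87 kb at Pfkp (exact p = 0.0556), where 0.0556 is the smallest value possible. On the scaled length the differences were -0.600, -4.34 and -1.72 kb, and none of the 3 genes was called in opposite directions, though the mean differences of Hk1 had opposite signs.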

How the results depend on the processing

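The H3K9cr difference between UUO and control kidneys kept its direction in 22 of 22 alternative settings at Hk2, Ldha, Pck1 and Fbp1 and in 21 of 22 at G6pc. Of the 3 gluconeogenic genes, 3 were lower without overlap in each of these settings except the 1 kb around the starts, with 2, and the number of peaks, with 0. Most of the 22 settings are subsets of the libraries or the replicate block. Where groups do not overlap, as at Ldha, Pck1, Fbp1 and G6pc, these cannot change a direction or end a call, so only windows, peak choices and scaling test those genes. By number of peaks the mean of G6pc was 0.75 higher in UUO, with groups that overlapped. Windows of 3 kb left 0 glycolytic genes lower. With an equal number of the longest peaks taken from each library, 2 glycolytic genes were lower and 1 higher, and with the longest 50% of peaks 2 were lower. Scaling made 1 glycolytic gene higher. In WT libraries alone 4 were higher, and in ACSS2-/- libraries alone 6 were lower and 1 higher. Libraries with Y-linked peaks gave 2 lower and 1 higher. Those without them leave a single control library, where groups separate easily, so no count is drawn from them. The setting without libraries whose peak names carry another number, chosen after seeing the data, gave 2 lower. Shares over all genes are given above for scaling and for each genotype alone, and were not computed for the other settings.

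Differences of the other glycolytic genes changed sign, and the cause was not tested. Slc2a1 went from -0.594 kb to 0.0278 kb around the starts, 0.75 peaks by number, 0.0512 kb with the longest peaks, 1.999 kb scaled, 1.62 kb in WT and 0.432 kb without Y-linked peaks. Hk1 went from -0.666 kb to 0.0658 kb around the starts, 1.25 peaks by number, 2.14 kb scaled, 3.35 kb in WT and 0.754 kb without Y-linked peaks. Pfkp went from 0.338 kb to -0.196 kb with the longest peaks, -1.10 kb in ACSS2-/- mice and -0.0447 kb with Y-linked peaks. Pfkfb3 went from -3.37 kb to 0.0265 kb around the starts and 0.138 kb scaled. Pkm went from -0.461 kb to 0.0525 kb around the starts, 0.186 kb with the longest peaks, 0.677 kb scaled, 1.14 kb in WT and 0.679 kb without Y-linked peaks.

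With each library left out in turn, the 3 gluconeogenic genes have to stay lower in H3K9cr and in H3K9ac, as their groups do not overlap, so only the other genes are tested. In H3K9cr, 1 to 2 glycolytic genes were lower (2 without WT control 1 or WT UUO 1) and 0 to 1 higher (1 without WT control 1 or ACSS2-/- UUO 2). The differences ran from -1.63 to 0.323 kb at Slc2a1, -1.74 to 0.469 kb at Hk1, -0.0442 to 0.625 kb at Pfkp and -1.08 to 0.0252 kb at Pkm. In H3K9ac, with a UUO library left out, 3 to 4 glycolytic genes were lower (4 without ACSS2-/- UUO 2). Leaving out a control library there leaves a single control, so no count is drawn from it. Scaling gave 1 lower and 1 higher in H3K9ac, and leaving out libraries with another peak-name number gave 5 lower. Shares over all genes were not computed for these subsets. Between genotypes after UUO, each omission leaves a group of 1, so no count is drawn from it. In control kidneys, scaling, added after seeing the data, left 0 gluconeogenic and 3 glycolytic genes higher in ACSS2-/- mice, against 2 and 6.

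With a replicate block, which compares groups within each replicate number, the 3 gluconeogenic genes and Ldha were lower and Hk2 was higher in UUO for H3K9cr. Between genotypes after UUO, the block gave 1 gluconeogenic gene higher (Pck1), 4 glycolytic genes lower (Hk1, Hk2, Pfkp and Pkm) and G6pc lower. Deviations by replicate number correlated at r 0.44 there, or 0.16 on the scaled length, over 2 libraries per group. Crossed pairing, added after seeing the data, gave 2 gluconeogenic and 6 glycolytic genes higher in ACSS2-/- control kidneys, and the block 3 and 6. Shares over all genes were not computed under the block or the crossed pairing. Among protein-coding genes alone, without the block, the background shares of H3K9cr in UUO were 18.3% lower and 2.34% higher. Read depth is unknown from the lists, so an absent peak is not an absent mark.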

Other observations

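Crotonylation and acetylation are made on the same lysine of histone H3, which carries at most a single such group at a time. Peaks of both marks over the same stretch in kidney tissue therefore need not come from the same histone, cell or allele.

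The annotated start lay in an H3K9cr peak at Pck1 in 2 of 8 libraries and at Fbp1 in 4 of 8, although each library had peaks inside both genes. In H3K9ac the starts of Pck1, Fbp1 and G6pc lay in a peak in 2 of 6 libraries each.

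Of the 5 motifs searched, Hk1 and Pfkp held none. The outer start of Ldha had ACGTG at 34, 47, 48, 144 and 145 bases before it, counting both strands, and the start of Slc2a1 had it at 36 bases. Starts of Pfkfb3 had ACGTG at 52, 53 and 60 bases, and a start of Pkm had it at 75 bases. TGACG lay at 6, 62 and 112 bases before starts of Pfkfb3 and at 9, 12 and 143 bases before starts of Ldha. AGGTCA lay 142 bases before a start of Pkm. These positions describe letters only.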
